A study of Homo sapiens with 9 samples.

Results

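The mitochondrial respiratory chain subunits described here are 50 genes of complexes I to IV, taken from a list of symbols. For each gene, the probe set with the highest mean signal over 9 arrays was used, out of the probe sets annotated to that gene alone. Of the 50 listed genes, 44 were tested, among 12594 genes tested in all: 25 of 28 for complex I, 3 of 4 for complex II, 5 of 7 for complex III and 11 of 11 for complex IV. NDUFC2, NDUFS5 and NDUFS8 of complex I and UQCRH of complex III had only probe sets annotated to several genes and were left out, and SDHB and UQCRFS1 were not analysed here. NDUFA4, which the annotation lists as COXFA4 under the same gene number, was counted with complex IV, to which the protein is now assigned.

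RNA from 3 human breast cell lines was hybridised to 1-colour Affymetrix arrays, 3 arrays per line, in a study of genes lost in the metastatic line. By their labels, MIV (MCF-10A1a) stands for metastatic carcinoma, MIII (MCF-10A1h) for carcinoma and MII (MCF-10AT1Kcl2) for carcinoma in situ. All 3 descend from the breast epithelial line MCF-10A, carry activated HRAS and were grown in the same DMEM/F12 medium with horse serum, antibiotics, insulin, cholera toxin, epidermal growth factor and hydroxycortisone. Each group is 1 cell line, and the labels call its arrays biological replicates without saying whether they came from separate cultures, so that p-values measure only the spread among these arrays, some or all of which may be technical.

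The respiratory chain of the inner mitochondrial membrane passes electrons from NADH, at complex I, and from succinate, at complex II, through ubiquinone to complex III, and from there by cytochrome c to complex IV, which reduces oxygen. Complexes I, III and IV pump protons, and ATP synthase uses the gradient. Most subunits are encoded in the nucleus, as are all members described here, while a small set of core proteins of complexes I, III and IV is encoded in mitochondrial DNA. Nuclear subunit genes are widely expressed, and their promoters are known for binding NRF1, the ETS factor GABPA and YY1.

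The promoters of 5 of the 8 members with the largest changes between lines are shown as examples, since each holds at least 1 motif of these factors. The motifs searched on both strands were GCGCA and GCGC with any 1 base between them for NRF1, CCGGAAG for the ETS factor and AANATGGCG for YY1, which do not overlap in the windows shown. The windows shown run from 250 bases before to 30 bases after the annotated start, 5′ to 3′ on the strand of the gene. They come from RefSeq on GRCh38.p14, and capitals mark the matches, on either strand. For NDUFS1, which has 2 starts, the most upstream one is shown. COX6B1 lies at chr19:35648073-35648352 (plus strand), NDUFA3 at chr19:54102605-54102884 (plus), NDUFB4 at chr3:120596086-120596365 (plus), COX6A1 at chr12:120437863-120438142 (plus) and NDUFS1 at chr2:206159415-206159694 (minus).
COX6B1: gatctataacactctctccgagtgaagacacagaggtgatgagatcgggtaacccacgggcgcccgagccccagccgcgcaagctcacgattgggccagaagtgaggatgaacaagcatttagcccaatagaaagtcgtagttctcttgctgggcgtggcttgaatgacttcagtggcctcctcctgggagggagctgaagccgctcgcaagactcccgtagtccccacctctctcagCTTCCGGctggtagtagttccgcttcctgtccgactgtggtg
NDUFA3: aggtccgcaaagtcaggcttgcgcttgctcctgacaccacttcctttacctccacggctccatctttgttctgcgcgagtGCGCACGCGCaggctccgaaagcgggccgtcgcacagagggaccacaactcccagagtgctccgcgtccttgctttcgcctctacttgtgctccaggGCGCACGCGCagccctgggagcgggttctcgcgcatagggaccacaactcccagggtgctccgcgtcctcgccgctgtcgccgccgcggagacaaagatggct
NDUFB4: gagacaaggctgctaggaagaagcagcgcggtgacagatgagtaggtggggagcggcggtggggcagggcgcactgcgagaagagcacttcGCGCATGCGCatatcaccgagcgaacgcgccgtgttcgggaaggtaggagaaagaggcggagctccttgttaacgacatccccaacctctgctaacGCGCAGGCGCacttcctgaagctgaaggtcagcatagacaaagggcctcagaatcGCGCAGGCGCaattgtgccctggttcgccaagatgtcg
COX6A1: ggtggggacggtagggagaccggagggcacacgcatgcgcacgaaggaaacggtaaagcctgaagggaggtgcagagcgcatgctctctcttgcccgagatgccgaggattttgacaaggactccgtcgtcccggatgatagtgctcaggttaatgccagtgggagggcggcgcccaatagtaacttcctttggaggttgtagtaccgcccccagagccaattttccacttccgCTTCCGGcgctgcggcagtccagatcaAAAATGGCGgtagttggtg
NDUFS1: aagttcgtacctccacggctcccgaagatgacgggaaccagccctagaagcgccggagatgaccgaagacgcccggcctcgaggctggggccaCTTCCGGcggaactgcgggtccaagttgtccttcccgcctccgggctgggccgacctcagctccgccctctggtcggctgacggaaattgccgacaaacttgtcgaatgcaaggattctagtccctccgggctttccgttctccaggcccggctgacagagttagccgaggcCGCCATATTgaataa
COX6B1 held 1 ETS motif close to its start, NDUFA3 held 2 NRF1 motifs, and NDUFB4 held NRF1 motifs at 3 places, of which the farthest from the start reads the same on both strands. COX6A1 and NDUFS1 each held 1 ETS motif before the start and 1 YY1 motif after it. Of the 38 members with a window in the table, 22 (57.9%) held at least 1 of the 3 motifs, against 17.1% of all 35116 windows. YY1 was in 10 members (26.3%, against 3.2% of all windows), ETS in 11 (28.9%, against 10.3%) and NRF1 in 6 (15.8%, against 5.8%). Some members have several starts, and by windows the count was 23 of 46. A match is a run of letters in a window and no measured binding. NDUFB8, whose window also held a YY1 motif, NDUFB5 and NDUFA4 are not shown.

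Signals of the members were bright and repeatable. The mean signal over 9 arrays ran from 1613.8 for NDUFB7, at the 70.1 percentile of all genes tested, to 22359.3 for COX6A1, at the 98.8 percentile, and the median member lay at the 95.1 percentile. Within a complex, the dimmest and brightest probe sets were NDUFB7 and NDUFB4 (17486.7) in complex I, SDHC (3059) and SDHD (4493) in complex II, UQCRC2 (7570.9) and UQCRQ (19247.4) in complex III, and COX6B1 (11656.3) and COX6A1 in complex IV, which ranks probe sets and not transcripts. All 44 members passed the filter on low values, also at the stricter pooled 75th percentile of 435.7. The coefficient of variation of a member over the 3 arrays of a line had a median of 3.12% in MIV, 4.24% in MIII and 3.86% in MII, and its highest values were 12.9% for NDUFB3 in MIV, 15.4% for NDUFB7 in MIII and 22.2% for NDUFA7 in MII.

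Breast epithelial markers were present in all lines, with 8 of 9 above the pooled median signal in each and KRT19 under it on all 9 arrays, but the lines were not alike. The summed signal of the 9 ranged from 141606 to 157199 in MIV, from 73040 to 74546 in MIII and from 149793 to 156604 in MII. Single markers did not all follow the sum: KRT5 had no call in any comparison, and KRT14 was lowest in MIV, with 114 to 151 in MIV, 877 to 1045 in MIII and 2066 to 2236 in MII. Fibroblast markers (10 genes) summed to 790 to 870 in MIV, 6531 to 6861 in MIII and 1142 to 1197 in MII, with COL1A2, PDGFRA and PDGFRB under the pooled median signal on all 9 arrays and FAP highest in MII. Adipocyte markers (6 genes) summed to 148 to 195 in MIV, 15940 to 16435 in MIII and 252 to 301 in MII. FABP4 alone, a fatty acid carrier, gave 15414 to 15863 of the MIII sum, while ADIPOQ, LEP and UCP1 lay under that median on all 9 arrays. Leukocyte markers (6 genes) summed to 649 to 898 in MIV, 870 to 1161 in MIII and 1838 to 2039 in MII, with PTPRC and LYZ under the median on all 9 arrays and CD14 lower than in MII in both MIV (-2.15) and MIII (-1.30). Of 6 endothelial markers, 5 lay under it on all 9 arrays, and PECAM1 was higher than in MII in both MIV (0.78) and MIII (0.51). The 3′ to 5′ signal ratio of actin, a sign of RNA quality, was 1.116 to 1.15 in MIV, 1.166 to 1.235 in MIII and 1.203 to 1.249 in MII. That of GAPDH was 1.045 to 1.095 in MIV, 0.974 to 0.988 in MIII and 1.059 to 1.165 in MII, so that MIII lay below both other lines. The bioB hybridisation control read 2620 on MIV replicate 3, against 823 to 1283 on the other 8 arrays. The part of these differences in the results on subunits was not tested, and since whole cultures were measured, fewer cells with a transcript and less of it per cell cannot be told apart.

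By the brightest probe set of each gene, respiratory chain subunits changed little between the lines. No member reached 2-fold in any of the 3 comparisons by that probe set, and the widest difference, that of NDUFA3 between MIV and MII, was -0.83 on the log2 scale. The median signal of the members was 8357 ± 279 in MIV, 9166 ± 372 in MIII and 9026 ± 218 in MII (SD of the array medians, n = 3 each). Changes are differences of log2(signal + 18.3), tested with limma and adjusted by Benjamini-Hochberg over all genes; the offset understates the change of dim genes. An exact permutation test of 3 arrays against 3 cannot go below p = 0.1, so single members rest on limma alone.

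In MIV over MIII, 21 of 44 members (47.7%) had an adjusted p under 0.05, beside 51.9% of all genes tested. Of these, 6 were higher and 15 lower in MIV, where 25.3% of all genes were higher and 26.6% lower. The median change of the members was -0.07, with a range from -0.70 (NDUFA3) to 0.54 (NDUFS1), beside a median of -0.01 over all genes. In MIV over MII, 6 members were higher and 12 lower (40.9% called), beside 42.2% of all genes (20.0% higher and 22.2% lower). The median there was -0.05, with a range from -0.83 (NDUFA3) to 0.58 (NDUFB4), beside -0.03 over all genes. In MIII over MII, 9 members were higher and 9 lower (40.9%), beside 47.2% of all genes (22.9% higher and 24.3% lower), with a median of -0.01, a range from -0.37 (NDUFA10) to 0.50 (NDUFB4), and -0.02 over all genes. Of the 8318 genes that passed the stricter filter, 61.9% were called in MIV over MIII, 51.3% in MIV over MII and 56.3% in MIII over MII, more than among the members. How the members stood against all genes depended on the processing. Without the variance trend, 20.5% of members and 44.3% of all genes were called in MIII over MII, and with the mean of all probe sets 25% and 41.2%. With cyclic loess normalization, 56.8% of members and 42.1% of all genes were called in MIV over MII, and with quantile normalization 61.4% and 51.7% in MIV over MIII.

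The median absolute log2 change of the members was 0.13 in MIV over MIII, 0.12 in MIV over MII and 0.12 in MIII over MII, beside 0.32, 0.25 and 0.28 over all genes tested in the same order. Among the 8318 genes above the stricter filter, which are brighter and so closer to the members, it was 0.29, 0.23 and 0.25. Small changes were not particular to the members: the median absolute change was 0.09, 0.12 and 0.09 for ATP synthase subunits, 0.14, 0.14 and 0.11 for markers of mitochondrial mass and 0.19, 0.12 and 0.14 for the mitochondrial ribosome, each with 0 genes at 2-fold. At least 2-fold and called were 12.7% of all genes in MIV over MIII, 8.14% in MIV over MII and 11.7% in MIII over MII, and 0 of 44 members in each by their brightest probe set, whatever their p. By unadjusted p under 0.05 in limma, 25, 23 and 22 members differed in the 3 comparisons in that order (56.8%, 52.3% and 50%), beside 56.4%, 48.8% and 53.3% of all genes. The arrays of the lines did not overlap for 28 members in MIV over MIII, 26 in MIV over MII and 24 in MIII over MII, beside 58.8%, 50.7% and 55.3% of all genes. Over the 3 comparisons, which share arrays, 15 members were called in 0, 7 in 1, 16 in 2 and 6 in 3. This count was not made over all genes tested, so it cannot be read as a trait of the members.

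**Figure D1:**
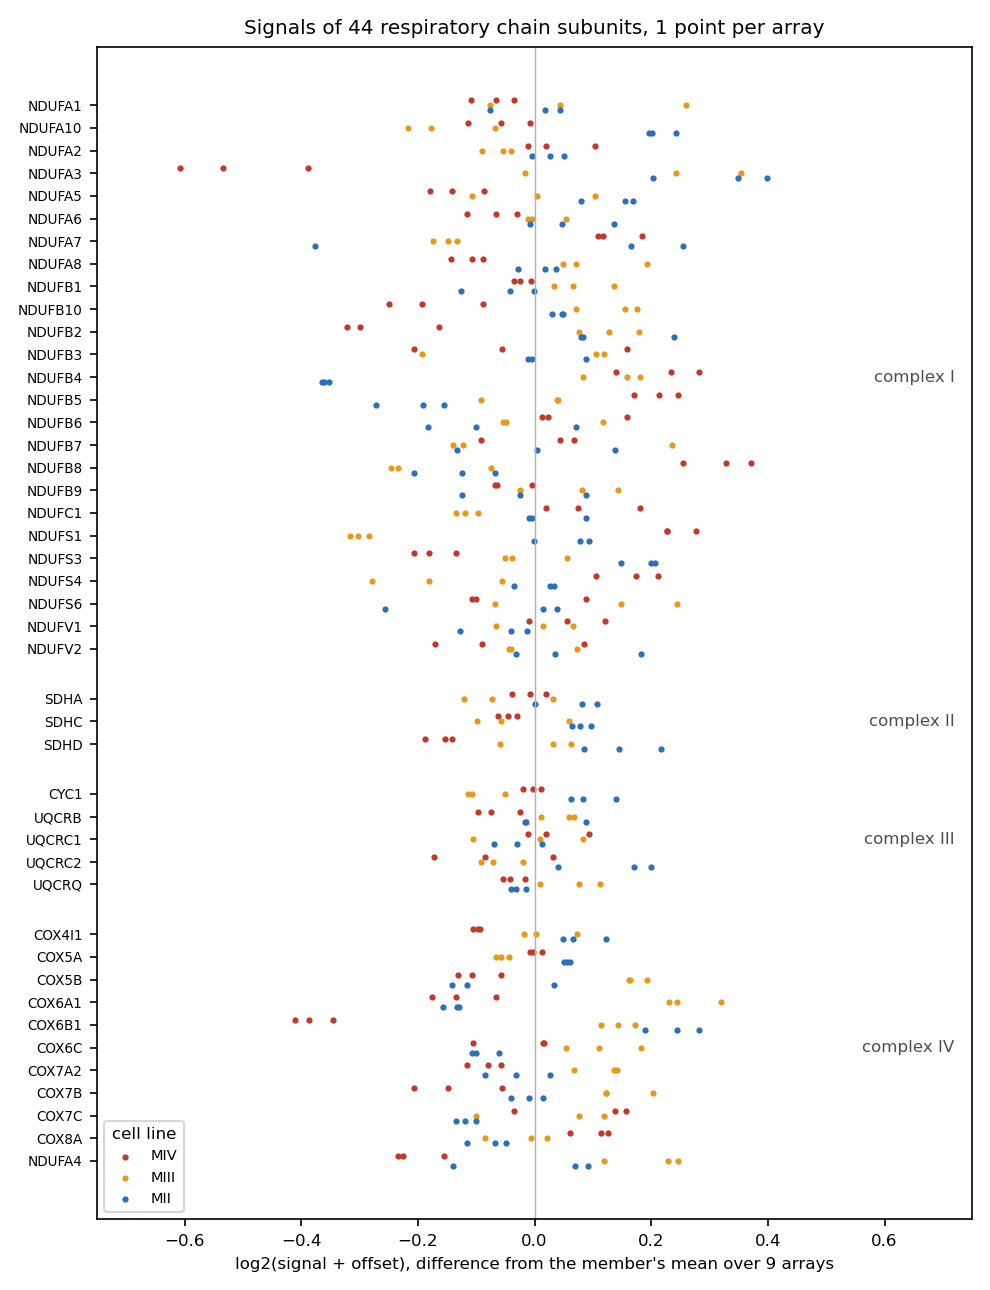
Signal of each of the 44 members on each of the 9 arrays, as log2(signal + offset) minus the member's own mean over the arrays, with members down the page by complex and 1 point per array coloured by line. Most points lie within 0.2 of the member's mean, while NDUFA3 and COX6B1 are low on the 3 MIV arrays and NDUFB4 on the 3 MII arrays.

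**Figure D2:**
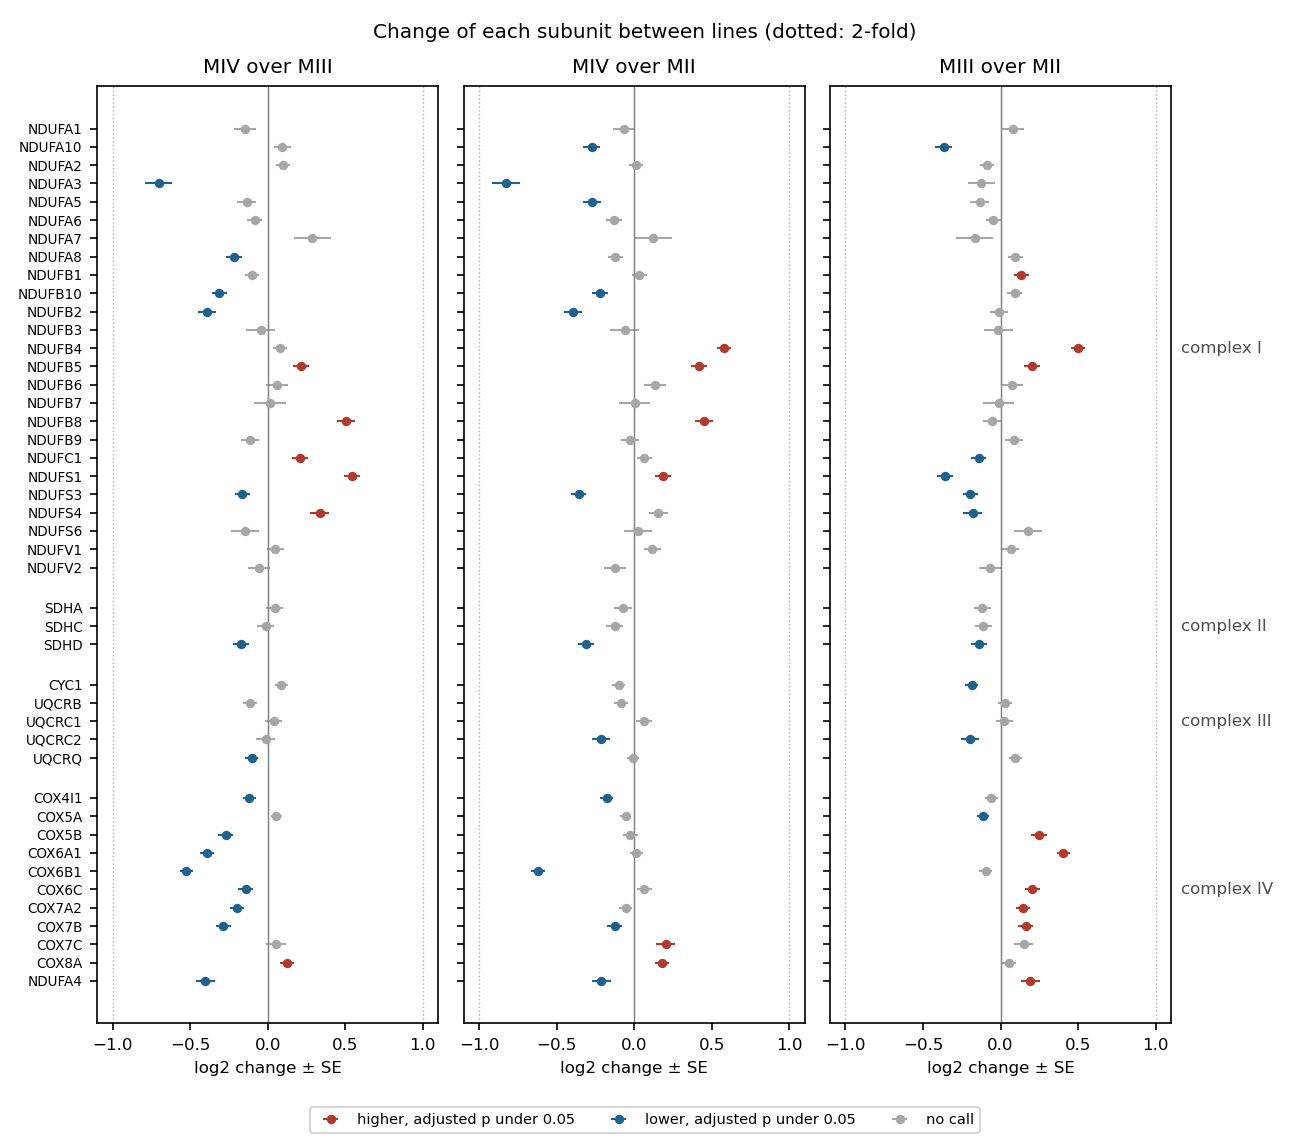
Change of each member in the 3 comparisons, as log2 change ± standard error from limma, with red for higher and blue for lower at an adjusted p under 0.05 and grey for no call. Every point lies inside the dotted lines at 2-fold, and in complex IV 8 of 11 members lie to the left at a called level in MIV over MIII.

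Complex I oxidises NADH in a peripheral arm that reaches into the matrix and pumps protons in a membrane arm. Its 25 tested members held calls in both directions in every comparison. In MIV over MIII, 5 were higher and 5 lower (20% each, beside 25.3% and 26.6% of all genes), with a median of -0.05. In MIV over MII, 4 were higher and 6 lower (16% and 24%, beside 20.0% and 22.2%), with a median of 0.00, and in MIII over MII, 3 were higher and 5 lower (12% and 20%, beside 22.9% and 24.3%), with a median of -0.01. The peripheral arm core was split. NDUFS1, the largest subunit, which carries iron-sulphur clusters, had signals of 3941.6, 3809.1 and 3809.3 in MIV, 2667.6, 2609.1 and 2633.2 in MIII, and 3251.1, 3468.8 and 3434.3 in MII. No 2 lines overlapped: MIV was highest and MIII lowest, at 0.54 ± 0.05 in MIV over MIII (adjusted p = 6.56e-07), 0.19 ± 0.05 in MIV over MII (adjusted p = 0.00849) and -0.36 ± 0.05 in MIII over MII (adjusted p = 4.41e-05). A dimmer probe set annotated to NDUFS1, with a mean signal of 123, was called the other way, at -0.70 in MIV over MIII and -0.84 in MIV over MII. Another, with a mean of 516, was also called lower in MIV than in MII (-0.58) and was at -0.38 in MIV over MIII without a call. The second brightest, with a mean of 639, had no call, at 0.03, 0.13 and 0.09 in the 3 comparisons. The dimmest, with a mean of 66, had none either. The direction of NDUFS1 thus depends on the probe set.

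NDUFS3, another core subunit of the peripheral arm, was lowest in MIV and highest in MII. It had 4071.6, 4279.0 and 4144.5 in MIV, 4887.0, 4536.0 and 4573.8 in MIII, and 5211.6, 5396.6 and 5422.7 in MII. The lines did not overlap, and the changes were -0.16 ± 0.05 in MIV over MIII (adjusted p = 0.0135), -0.36 ± 0.05 in MIV over MII (adjusted p = 5.39e-05) and -0.20 ± 0.05 in MIII over MII (adjusted p = 0.00487). The other core members, NDUFV1, which holds the NADH site and the flavin, and NDUFV2, its iron-sulphur partner, had no call in any comparison, with changes between -0.12 and 0.12.

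Accessory subunits of the peripheral arm, which stabilise the core, gave few calls. NDUFS4, needed for a stable NADH-oxidising module, averaged 3818 ± 141 in MIV, 3026 ± 236 in MIII and 3425 ± 89.9 in MII (SD, n = 3), and was higher in MIV than in MIII by 0.34 ± 0.06 (adjusted p = 0.000395) and lower in MIII than in MII (-0.18 ± 0.06, adjusted p = 0.0274). NDUFA5 was lower in MIV than in MII (-0.27 ± 0.06, adjusted p = 0.00237). NDUFA2, NDUFA6, NDUFA7 and NDUFS6 had no call by the brightest probe set, though a dimmer one of NDUFA6 was called lower in MIV. NDUFA7 had the widest spread of any member: MII gave 2775.7, 1784.0 and 2608.1, so that a difference of 0.29 ± 0.12 in MIV over MIII, where the arrays did not overlap, had an adjusted p of 0.0602.

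Of the accessory subunits of the membrane arm, 15 were tested, and 4 of them (NDUFA3, NDUFB4, NDUFB5 and NDUFB8) were among the 8 members with a change of at least 0.4 in any comparison. NDUFA3, a small membrane protein of this arm, had 2511.9, 2646.7 and 2929.9 in MIV, 4911.5, 4544.1 and 3795.8 in MIII, and 4422.6, 4891.6 and 5067.3 in MII. All 3 MIV arrays lay below all 6 others, while MIII and MII overlapped. The fall was -0.70 ± 0.09 against MIII (adjusted p = 1.47e-05) and -0.83 ± 0.09 against MII (adjusted p = 5.38e-06), and MIII over MII gave -0.12 ± 0.09 (adjusted p = 0.28).

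NDUFB4 was the member with the largest rise. Its signals were 20261.3, 18968.1 and 20931.3 in MIV, 19507.6, 18246.7 and 19219.4 in MIII, and 13398.0, 13473.7 and 13373.9 in MII. MIV and MIII overlapped and both lay above MII, by 0.58 ± 0.05 in MIV (adjusted p = 2.76e-07) and 0.50 ± 0.05 in MIII (adjusted p = 7.59e-07). NDUFB5 had 9381.4, 9103.3 and 9602.8 in MIV, 8311.7, 7593.1 and 8324.7 in MIII, and 7263.7, 6697.8 and 7087.0 in MII. Each line stood apart, with MIV highest: 0.21 ± 0.05 against MIII (adjusted p = 0.00323) and 0.42 ± 0.05 against MII (adjusted p = 2.09e-05), and MIII was above MII by 0.20 ± 0.05 (adjusted p = 0.00525). NDUFB5 was the only member called higher in all 3 comparisons.

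NDUFB8, whose protein is lost when complex I is not assembled, was higher in MIV alone. It had 7797.6, 7573.5 and 7196.9 in MIV, 5722.0, 5075.4 and 5118.3 in MIII, and 5746.8, 5526.7 and 5222.7 in MII. MIII and MII overlapped, and MIV exceeded MIII by 0.50 ± 0.06 (adjusted p = 6.95e-06) and MII by 0.45 ± 0.06 (adjusted p = 3.28e-05). NDUFB2 and NDUFB10 went the other way in the same comparisons. NDUFB2 averaged 7727 ± 466 in MIV, 10115 ± 360 in MIII and 10173 ± 652 in MII (SD, n = 3), which is -0.39 ± 0.06 (adjusted p = 6.59e-05) and -0.40 ± 0.06 (adjusted p = 9.03e-05) for MIV over MIII and MII. NDUFB10 was at -0.31 ± 0.05 (adjusted p = 0.000122) and -0.22 ± 0.05 (adjusted p = 0.00279).

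Further calls in the membrane arm were smaller. NDUFA10 averaged 3388 ± 126 in MIV, 3174 ± 173 in MIII and 4096 ± 71.9 in MII (SD, n = 3), so that it was lower in both MIV (-0.27 ± 0.06, adjusted p = 0.00123) and MIII (-0.37 ± 0.06, adjusted p = 8.14e-05) than in MII. NDUFA8 was lower and NDUFC1 higher in MIV than in MIII, at -0.22 and 0.21. NDUFC1 was also lower in MIII than in MII, at -0.14, and NDUFB1 was higher there by 0.13 ± 0.05 (adjusted p = 0.0286). The call of NDUFB1 was lost without MII replicate 2 (adjusted p = 0.128) or without either MIII replicate 1 (adjusted p = 0.118) or MIII replicate 3 (adjusted p = 0.0537). NDUFA1, NDUFB3, NDUFB6, NDUFB7 and NDUFB9 had no call in any comparison.

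Complex II, succinate dehydrogenase, also works in the TCA cycle and has 4 subunits, all nuclear. SDHA, the flavoprotein that oxidises succinate, averaged 3360 ± 68.6 in MIV, 3259 ± 179 in MIII and 3536 ± 136 in MII (SD, n = 3) and had no call. SDHC, a membrane anchor that helps bind ubiquinone, averaged 2959 ± 33.6 in MIV, 2990 ± 172 in MIII and 3229 ± 36.4 in MII and had no call either, though 2 of its 6 dimmer probe sets were called lower in MIII than in MII. SDHD, the other anchor, had 4052.3, 3925.6 and 4021.6 in MIV, 4293.8, 4671.8 and 4574.3 in MIII, and 4746.8, 5200.7 and 4949.9 in MII. The 3 lines did not overlap, with MIV lowest and MII highest: -0.17 ± 0.05 in MIV over MIII (adjusted p = 0.0139), -0.31 ± 0.05 in MIV over MII (adjusted p = 0.000329) and -0.14 ± 0.05 in MIII over MII (adjusted p = 0.047). The call of SDHD in MIII over MII was lost without any of 7 of the 9 arrays in turn, at adjusted p between 0.0534 and 0.175, and that in MIV over MIII was lost without MIII replicate 2 (adjusted p = 0.0589).

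Complex III passes electrons from ubiquinol to cytochrome c. Of its 5 tested members, 0 were higher and 1 lower in MIV over MIII (beside 25.3% and 26.6% of all genes). In MIV over MII, 0 were higher and 1 lower (beside 20.0% and 22.2%), and in MIII over MII, 0 and 2 (beside 22.9% and 24.3%). With 5 genes, these counts do not set the complex apart. UQCRC2, a core protein of the matrix side, was lower than in MII both in MIV (-0.21 ± 0.06, adjusted p = 0.0109) and in MIII (-0.20 ± 0.06, adjusted p = 0.0138), with averages of 7173 ± 517 in MIV, 7232 ± 186 in MIII and 8307 ± 479 in MII (SD, n = 3). The UQCRC2 call in MIV was lost without MIV replicate 2 (adjusted p = 0.0505), and that in MIII without MII replicate 1 (adjusted p = 0.0566). CYC1, the cytochrome c1 that hands electrons on, had 11854.6, 11602.8 and 11741.6 in MIV, 11359.5, 10923.2 and 10867.0 in MIII, and 12471.4, 12297.1 and 12974.1 in MII. It was lowest in MIII, with no overlap, and the call was for MIII over MII (-0.19 ± 0.04, adjusted p = 0.00218). UQCRQ was lower in MIV than in MIII by a small margin (-0.10 ± 0.04, adjusted p = 0.0478), and that call was lost without any single array but MIII replicate 3, at adjusted p up to 0.171. UQCRB and UQCRC1 had no call by their brightest probe set, with changes between -0.11 and 0.06, but dimmer probe sets of UQCRB were called lower in MIV.

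Complex IV, cytochrome c oxidase, was the complex in which most members moved together. Its nuclear subunits surround a mitochondrially encoded catalytic core. In MIV over MIII, 8 of 11 were lower and 1 higher, beside 26.6% and 25.3% of all genes, and the median was -0.20. In MIII over MII, 6 were higher and 1 lower, beside 22.9% and 24.3%, and the median was 0.15. In MIV over MII, 2 were higher and 4 lower (18.2% and 36.4%, beside 20.0% and 22.2% of all genes), with a median of -0.05. MIV over MIII and MIII over MII use the same MIII arrays. In MIII the summed signal of the breast epithelial markers was lowest and those of the fibroblast and adipocyte markers highest of the 3 lines, and the GAPDH ratio was lowest.

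COX5B, COX6A1, COX6C and COX7A2 shared 1 pattern: lower in MIV than in MIII, higher in MIII than in MII, and no call between MIV and MII. COX6A1, the widely expressed isoform of subunit VIa, had 20187.2, 19625.2 and 21158.2 in MIV, 26264.1, 27672.5 and 25999.7 in MIII, and 20207.9, 19864.3 and 20254.3 in MII. All 3 MIII arrays lay above the 6 others, which overlapped: -0.39 ± 0.04 in MIV over MIII (adjusted p = 3.96e-06), 0.41 ± 0.04 in MIII over MII (adjusted p = 3.12e-06) and 0.01 ± 0.04 in MIV over MII (adjusted p = 0.817). COX5B averaged 11964 ± 311 in MIV, 14444 ± 178 in MIII and 12181 ± 806 in MII (SD, n = 3), at -0.27 in MIV over MIII and 0.25 in MIII over MII. COX6C and COX7A2 changed less, at -0.14 and -0.20 in MIV over MIII and 0.21 and 0.15 in MIII over MII.

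NDUFA4, once assigned to complex I, and COX7B, a small membrane subunit, were highest in MIII and lowest in MIV. NDUFA4 had 11148.3, 11214.9 and 11767.6 in MIV, 14252.5, 15554.3 and 15365.9 in MIII, and 11901.5, 13756.1 and 13981.6 in MII. No lines overlapped: -0.40 ± 0.06 in MIV over MIII (adjusted p = 7.48e-05), -0.21 ± 0.06 in MIV over MII (adjusted p = 0.0124) and 0.19 ± 0.06 in MIII over MII (adjusted p = 0.0193). The NDUFA4 call in MIV over MII was lost without MII replicate 2 (adjusted p = 0.0551) or MII replicate 3 (adjusted p = 0.0606). COX7B averaged 13842 ± 739 in MIV, 16877 ± 554 in MIII and 15084 ± 286 in MII, at -0.29, -0.12 and 0.16 in the 3 comparisons.

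COX6B1, a subunit on the intermembrane side that bridges the dimer, was low in MIV alone. Its signals were 8758.1, 8608.8 and 9011.8 in MIV, 12904.3, 12650.8 and 12406.4 in MIII, and 13934.4, 13064.6 and 13567.1 in MII. Every MIV array lay far below the other 6, at -0.52 ± 0.04 against MIII (adjusted p = 2.18e-07) and -0.62 ± 0.04 against MII (adjusted p = 6.69e-08), while MIII over MII gave -0.10 ± 0.04 (adjusted p = 0.0872). COX4I1, the widely expressed isoform of subunit IV, was lower in MIV as well, at -0.12 against MIII and -0.18 against MII. COX8A, the smallest subunit, was higher in MIV than in MIII (0.12 ± 0.04, adjusted p = 0.0306) and MII (0.18 ± 0.04, adjusted p = 0.00512), and COX7C was higher in MIV than in MII (0.20 ± 0.06, adjusted p = 0.0172). COX5A was lower in MIII than in MII (-0.11 ± 0.04, adjusted p = 0.0238).

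Several of the smaller calls in complex IV hung on single arrays. COX8A in MIV over MIII was no longer called without MIII replicate 1 (adjusted p = 0.051), MIII replicate 3 (0.134), MIV replicate 1 (0.0952) or MIV replicate 3 (0.0737). COX7C in MIV over MII was lost without MII replicate 3 (adjusted p = 0.0507), MIV replicate 1 (0.077) or MIV replicate 3 (0.0638). COX5A in MIII over MII was lost without MII replicate 2, MII replicate 3, MIII replicate 2 or MIII replicate 3, at adjusted p between 0.056 and 0.0654. The count of complex IV members lower in MIV than in MIII stayed between 6 and 8 when any array was left out, and that of members higher in MIII than in MII between 3 and 7, with 3 without MIII replicate 2.

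**Figure D3:**
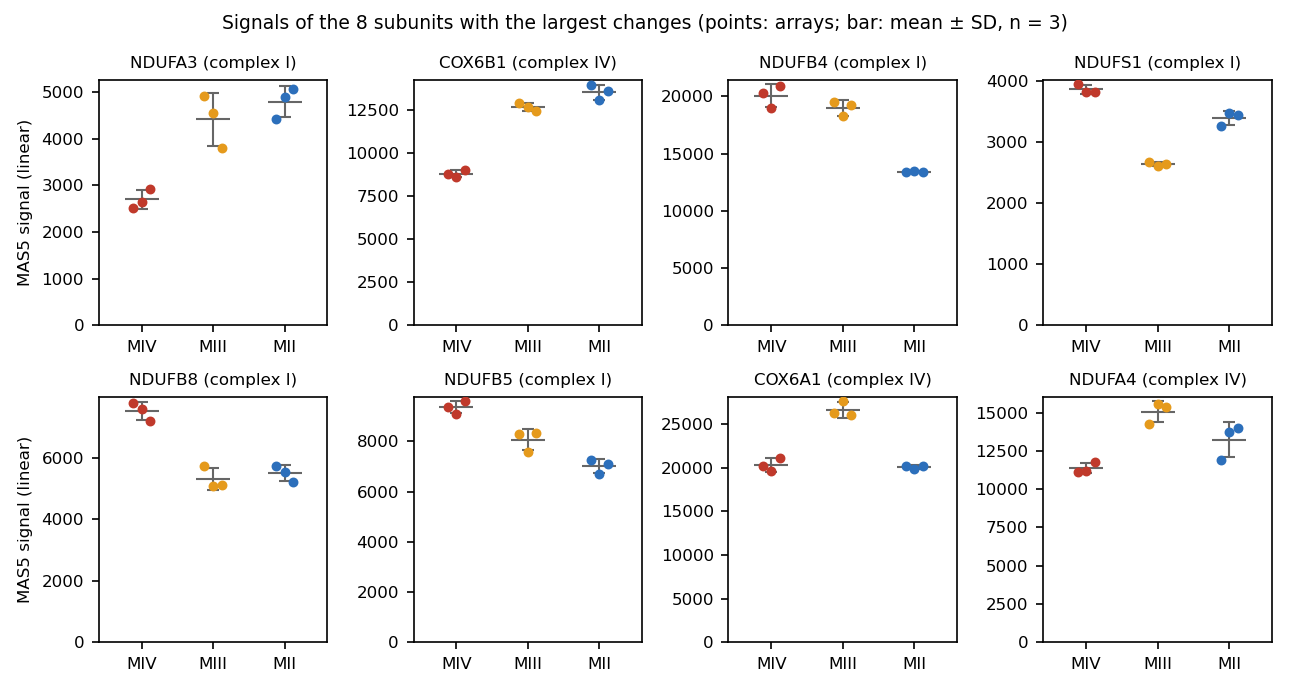
MAS5 signal on a linear scale starting at 0 for the 8 members with a log2 change of at least 0.4 in any comparison, with 1 point per array and bars for the mean ± SD of 3 arrays of MIV, MIII and MII. MIV stands low for NDUFA3 and COX6B1 and high for NDUFB8, MII stands low for NDUFB4, and MIII stands high for COX6A1.

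The 8 members with a change of at least 0.4 in any comparison were then set beside the genes around them in the genome, a comparison chosen after their values were seen. Their chromosomes are 19 for NDUFA3 and COX6B1, 3 for NDUFB4 and NDUFB5, 10 for NDUFB8, 12 for COX6A1, 2 for NDUFS1 and 7 for NDUFA4. NDUFB2 lay just under that limit, with a largest change of 0.396 in size. Neighbours were the 20 tested genes on each side in the gene order of GRCh38.p14, and their medians are of log2 changes.

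For 6 of the 8, the median of the neighbours had the sign of the member in the comparisons in which the member changed most, and fewer neighbours passed the test than shared that sign. Around NDUFA3, 32 of 40 neighbours lay below 0 in MIV over MIII (median -0.35), of which 15 were called, and 31 in MIV over MII (median -0.28), of which 17 were called. Around COX6B1, 31 lay below 0 in MIV over MIII (median -0.40), with 18 called, and 32 in MIV over MII (median -0.38), with 21 called. Around NDUFB4, 32 of 40 lay above 0 in MIV over MII (median 0.44), with 26 called, and 28 in MIII over MII (median 0.28), with 21 called. For NDUFB5 the counts were 35 (median 0.47), with 29 called, and 32 (median 0.41), with 27 called. Around NDUFB8, 32 of 40 lay above 0 in MIV over MIII (median 0.35), with 23 called, and 31 in MIV over MII (median 0.27), with 18 called. Around COX6A1, 34 of 40 lay below 0 in MIV over MIII (median -0.47), with 21 called, and 34 above 0 in MIII over MII (median 0.47), with 25 called, while MIV over MII, in which COX6A1 itself was at 0.01, gave a median of 0.01. The shares of all genes called in 1 direction, given above, lay between 20.0% and 26.6%.

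NDUFS1 and NDUFA4 had the opposite sign to their neighbours' median in MIV over MIII. The neighbours of NDUFS1 had medians of -0.12 in MIV over MIII, where NDUFS1 was at 0.54, of -0.16 in MIV over MII and of -0.02 in MIII over MII. Those of NDUFA4 had medians of 0.08, -0.12 and -0.14 in the same order, beside -0.40, -0.21 and 0.19 for NDUFA4. With 10 genes on each side, NDUFA3 had neighbour medians of -0.39 in MIV over MIII and COX6A1 of -0.31, and with 40 genes on each side these were -0.47 and -0.39, with the same sign in each window. The neighbours of NDUFS1 in MIV over MII turned to 0.03 with 10 genes on each side. Over all 44 members, the change of the member and the median of its neighbours correlated at r = 0.52 in MIV over MIII, 0.70 in MIV over MII and 0.38 in MIII over MII. These points share arrays, and members close to each other share neighbours. Of the members called, 15 of 21, 13 of 18 and 12 of 18 had the sign of their neighbours' median in the 3 comparisons in that order. The same correlations and counts were not computed over all genes tested, so they cannot be read as a trait of the members.

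**Figure D4:**
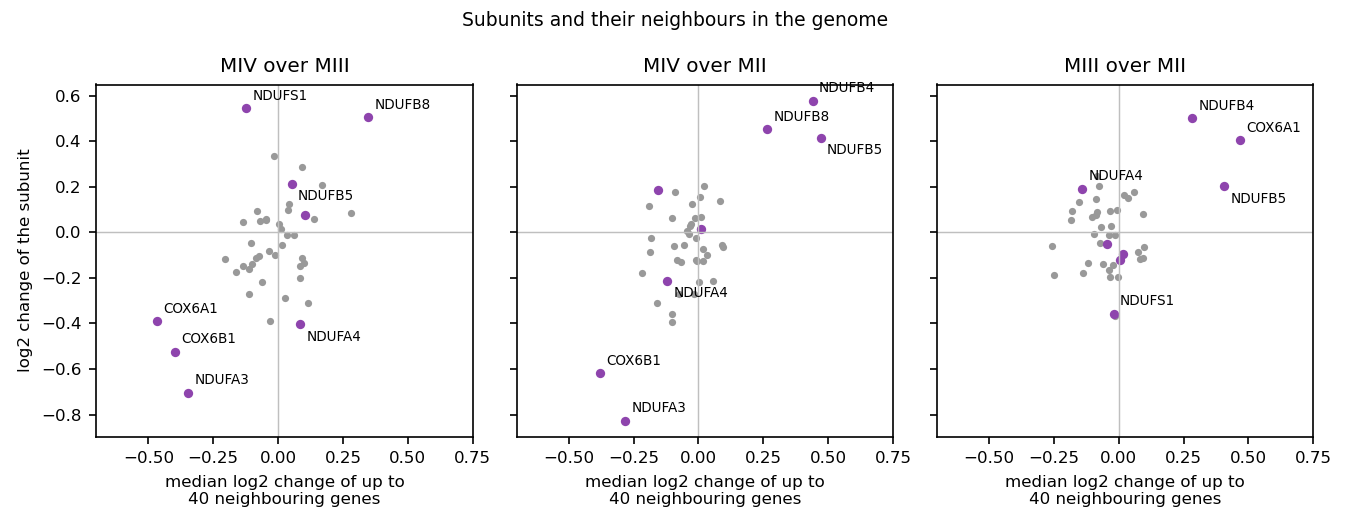
Log2 change of each member (vertical axis) against the median log2 change of up to 40 tested neighbours in the genome (horizontal axis) in the 3 comparisons, with the 8 members of largest change in purple and the other members in grey. NDUFA3 and COX6B1 lie low on both axes in both comparisons of MIV, NDUFB4 and NDUFB5 lie high on both against MII, and NDUFS1 lies high in MIV over MIII beside neighbours slightly below 0.

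Other genes of the mitochondrion were counted in lists that, like the members, were drawn up with earlier results of these data known. Among 11 other respiratory chain subunits, 2 were higher and 5 lower in MIV over MIII (18.2% and 45.5%, beside 25.3% and 26.6% of all genes). In MIV over MII, 0 were higher and 2 lower (0% and 18.2%, beside 20.0% and 22.2%). In MIII over MII, 5 were higher and 3 lower (45.5% and 27.3%, beside 22.9% and 24.3%). Most genes of this list belong to complex I, as did all those called in MIV over MIII. The 5 lower there were NDUFA9 (-0.52), NDUFA11 (-0.26), NDUFA12 (-0.55), NDUFA13 (-0.17) and NDUFB11 (-0.30). The 2 higher were NDUFV3 (0.56) and NDUFAB1 (0.13). The 5 lower in MIV than in MIII were also the ones higher in MIII than in MII. NDUFA12, an accessory subunit of the peripheral arm, averaged 10565 ± 384 in MIV, 15501 ± 391 in MIII and 11467 ± 471 in MII (SD, n = 3; adjusted p = 2.88e-07 in MIV over MIII), and lies on chromosome 12 among neighbours with medians of -0.32 in MIV over MIII and 0.34 in MIII over MII. NDUFV3, of the NADH-binding module, was lowest in MIII, with 3849.4, 3745.3 and 4073.2 in MIV, 2468.0, 2740.9 and 2667.3 in MIII, and 4115.9, 4135.8 and 4471.8 in MII (-0.69 in MIII over MII). The neighbours of NDUFV3, on chromosome 21, had medians of -0.13 in MIV over MIII and -0.04 in MIII over MII. CYCS, the cytochrome c that joins complexes III and IV, was lower than in MII in both MIV (-0.24) and MIII (-0.22). Of 3 genes listed as isoforms of other tissues that passed the filter, 0 were called in any comparison. In limma, 1, 0 and 0 had an unadjusted p under 0.05. COX4I2 and COX6A2 were dim, at 71.1 to 136.7 and 67.4 to 145.5 over all arrays. COX7A2L was bright in every line, at 4531.5 to 5286.7 over all arrays, so the name of the list does not hold for it.

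ATP synthase subunits (15 tested) gave 3 higher and 2 lower in MIV over MIII (20% and 13.3%, beside 25.3% and 26.6% of all genes). They gave 4 and 3 in MIV over MII (26.7% and 20%, beside 20.0% and 22.2%). In MIII over MII they gave 2 and 3 (13.3% and 20%, beside 22.9% and 24.3%). Of these, ATP5MC2, which encodes a ring subunit, was highest in MIII, at 6836 ± 240 in MIV, 11230 ± 624 in MIII and 6133 ± 41.1 in MII (-0.71 in MIV over MIII, adjusted p = 4.03e-08, and 0.87 in MIII over MII, adjusted p = 5.61e-09). It lies on chromosome 12, where its neighbours had medians of -0.56 and 0.48 in these comparisons. ATP5IF1, the inhibitor of ATP synthase, was higher in MIV than in MIII (0.60) and MII (0.40, adjusted p = 0.000396 in limma). Its neighbours on chromosome 1 had medians of 0.03 and -0.02 in these comparisons.

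Of 43 assembly factors of the respiratory complexes, 17 were higher and 6 lower in MIV over MIII (39.5% and 14%, beside 25.3% and 26.6% of all genes). In MIV over MII, 7 were higher and 13 lower (16.3% and 30.2%, beside 20.0% and 22.2%). In MIII over MII, 3 were higher and 17 lower (6.98% and 39.5%, beside 22.9% and 24.3%). COX14, a factor for the core of complex IV on chromosome 12, was highest in MIII, at 1369 ± 58.5 in MIV, 2406 ± 215 in MIII and 1923 ± 105 in MII (-0.80 in MIV over MIII). TIMMDC1, a complex I factor on chromosome 3 as NDUFB4 is, was higher in MIV than in MII (0.53). UQCC3, a complex III factor on chromosome 11, was lower than in MII in both MIII (-0.82) and MIV (-0.53). Its neighbours had medians of 0.04 and -0.11 in these comparisons. Of 75 mitochondrial ribosomal proteins, 31 were higher and 11 lower in MIV over MIII (41.3% and 14.7%), 19 and 12 in MIV over MII (25.3% and 16%), and 9 and 25 in MIII over MII (12% and 33.3%). MRPS12, on chromosome 19, was lower in MIV than in MII (-0.60). MRPL47, on chromosome 3, was higher in MIII than in MII (0.46) and stood at 0.47 in MIV over MII. MRPS10, on chromosome 6, was higher in MIV than in MIII (0.60), where its neighbours had a median of -0.01.

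TCA cycle enzymes, which feed the chain, were more often called lower than higher in MIII against each of the other lines, though not always the same enzymes. Of 12 tested, 7 were higher and 1 lower in MIV over MIII (58.3% and 8.33%, beside 25.3% and 26.6% of all genes). In MIV over MII, 0 were higher and 6 lower (0% and 50%, beside 20.0% and 22.2%). In MIII over MII, 1 was higher and 8 lower (8.33% and 66.7%, beside 22.9% and 24.3%). IDH2, the NADP-dependent isocitrate dehydrogenase of the matrix, averaged 1480 ± 123 in MIV, 854.0 ± 69.7 in MIII and 1785 ± 64.0 in MII (SD, n = 3), and its change of -1.05 in MIII over MII (adjusted p = 1.21e-07) passed 2-fold. The neighbours of IDH2, on chromosome 15, had medians of -0.007 in MIV over MIII, where IDH2 was at 0.78, and of -0.003 in MIII over MII. IDH3A was lower than in MII in both MIV (-0.55) and MIII (-0.57). The 1 enzyme called lower in MIV than in MIII and higher in MIII than in MII was citrate synthase (CS), at -0.39 and 0.33.

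Among 14 markers of mitochondrial mass, 3 were higher and 6 lower in MIV over MIII (21.4% and 42.9%, beside 25.3% and 26.6% of all genes). The counts were 2 and 5 in MIV over MII (14.3% and 35.7%, beside 20.0% and 22.2%). In MIII over MII they were 2 and 2 (14.3% each, beside 22.9% and 24.3%). VDAC2, an outer membrane channel on chromosome 10 as NDUFB8 is, was higher in MIV than in MIII (0.53) and MII (0.41), and PHB2, an inner membrane prohibitin on chromosome 12, was higher in MIII than in MII (0.42). Of 17 proliferation genes, 3 were higher and 7 lower in MIV over MIII (17.6% and 41.2%), 8 and 3 in MIV over MII (47.1% and 17.6%), and 9 and 2 in MIII over MII (52.9% and 11.8%). TYMS was highest in MIII, at -0.87 in MIV over MIII and 0.81 in MIII over MII. MCM2, higher in MIV than in MII (0.55), averaged 5219 ± 323 in MIV, 5900 ± 356 in MIII and 3568 ± 180 in MII (SD, n = 3).

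Regulators of mitochondrial biogenesis (13 tested) gave 5 higher and 3 lower in MIV over MIII (38.5% and 23.1%, beside 25.3% and 26.6% of all genes). They gave 4 and 2 in MIV over MII (30.8% and 15.4%, beside 20.0% and 22.2%). In MIII over MII they gave 3 and 3 (23.1% each, beside 22.9% and 24.3%). PPARGC1A, the coactivator PGC-1α, changed far more than any subunit: its signals were 17.5, 1.8 and 12.5 in MIV, 199.8, 219.5 and 162.8 in MIII, and 49.4, 54.3 and 89.0 in MII. The lines did not overlap, at -2.91 ± 0.32 in MIV over MIII (adjusted p = 3.9e-06), -1.52 ± 0.32 in MIV over MII (adjusted p = 0.00168) and 1.38 ± 0.32 in MIII over MII (adjusted p = 0.0027). All 3 MIV arrays and 2 of the 3 MII arrays lay under the pooled median of 69.3, so these are changes of a dim probe set. The neighbours of PPARGC1A, on chromosome 4, had medians of 0.145 in MIV over MIII, 0.046 in MIV over MII and -0.059 in MIII over MII. Of the factors whose motifs were searched, NRF1 was lower in MIV than in MIII (-0.58 ± 0.12, adjusted p = 0.00102) and higher in MIII than in MII (0.50 ± 0.12, adjusted p = 0.0038), and GABPA had no call, at -0.08, -0.03 and 0.05 in the 3 comparisons. YY1 had no call either, at 0.10, 0.01 and -0.09. The 5 regulators called higher in MIV than in MIII were TFB1M (0.98), PPRC1 (0.46), ESRRA (0.40), MYC (0.34) and GABPB1 (0.30). The 3 called lower were PPARGC1A, NRF1 and TFAM (-0.16).

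**Figure D5:**
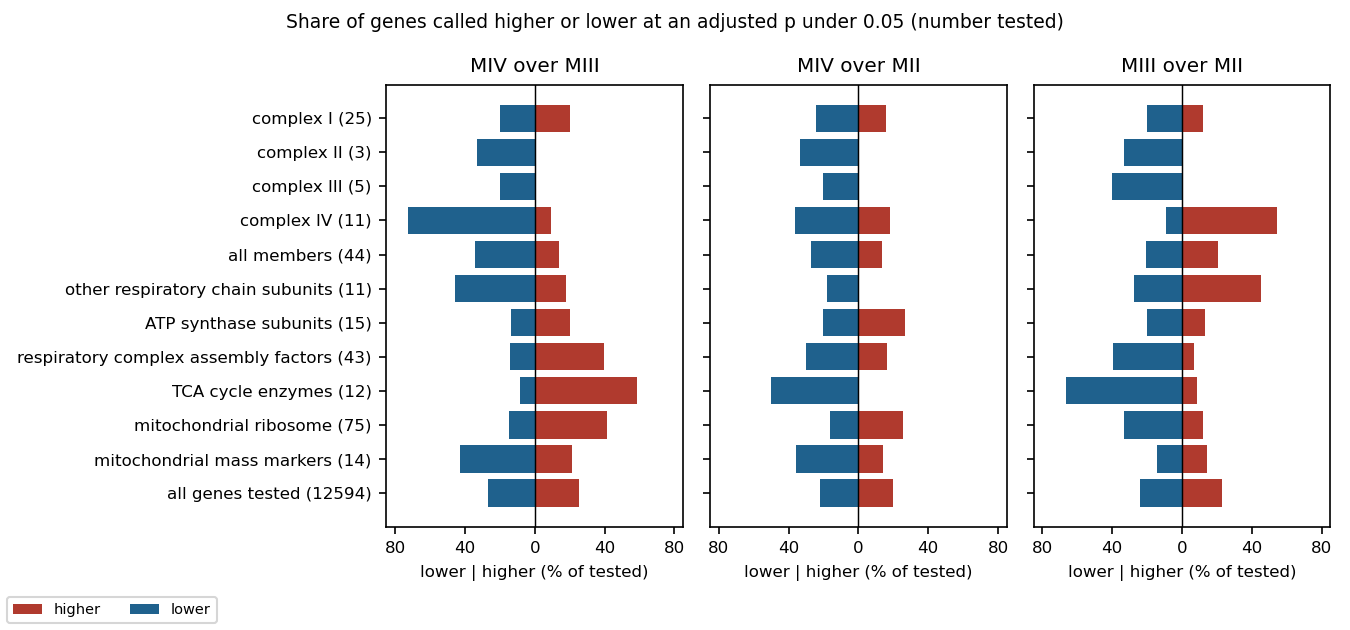
Share of the tested genes of each complex and list called lower (blue, to the left) or higher (red, to the right) at an adjusted p under 0.05 in limma, in percent, with the number tested in brackets and all 12594 genes at the bottom. Complex IV leans to lower in MIV over MIII and to higher in MIII over MII, the TCA cycle enzymes lean the other way, and complex I is split.

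More than 1 probe set passed the filter for 19 of the 44 members, with 82 such probe sets over all members, and p-values of single probe sets are adjusted over all kept ones. NDUFB2 was lower in MIV by its second probe set as well (-0.47 against MIII and -0.49 against MII), and NDUFB8 was higher by its second (0.59 and 0.64). A dimmer probe set of NDUFB8, with a mean signal of 382, was at -0.23 and -0.11, with no call. For COX5B, 3 bright probe sets were lower in MIV than in MIII, between -0.27 and -0.32, while a dim one was at 0.15. For NDUFB4, COX6B1, NDUFA3 and COX6A1, no other bright probe set was kept. Averaging all probe sets of a gene, dim ones included, ended the calls of COX6A1 (adjusted p = 0.0645 in MIV over MIII and 0.229 in MIII over MII). In MIV over MIII the average also turned the sign of NDUFS1 (-0.24), NDUFS4 (-0.16) and SDHD (0.074).

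In the limma fit of all kept probe sets, dimmer ones also gave calls where the brightest gave none, for 7 members in at least 1 comparison. They were 4 in MIV over MIII, 5 in MIV over MII and 1 in MIII over MII. The 5 include COX7B, whose brightest probe set had an adjusted p of 0.0596 in this fit. In the limma fit by gene, the same probe set had 0.0493 and was called lower in MIV over MII. In 3 members a dim probe set passed 2-fold and was called in MIV over MIII: COX7B (mean signal 181, -1.14, adjusted p = 5.36e-05), UQCRC2 (mean signal 132.8, -1.08, adjusted p = 0.00039) and UQCRB (mean signal 58.8, -1.17, adjusted p = 0.0168). That of UQCRC2 was also lower in MIV than in MII (-1.14, adjusted p = 0.00037), and its bright second probe set, with a mean of 6723, was at 0.07 in MIV over MIII. A further UQCRB probe set, with a mean signal of 755, was lower in MIV than in MIII (-0.45, adjusted p = 0.0014) and MII (-0.52, adjusted p = 0.00074), while the second brightest, with a mean of 9225, was at -0.03 and 0.04. The dimmer probe set of NDUFA6, with a mean signal of 695, was lower in MIV than in MIII (-0.68, adjusted p = 2.68e-05) and MII (-0.48, adjusted p = 0.000905). Of the 6 dimmer probe sets of SDHC, 2, with mean signals of 2045 and 1765, were lower in MIII than in MII (-0.34, adjusted p = 0.00858, and -0.37, adjusted p = 0.0143). COX5A and NDUFB1 had such calls in MIV as well, with dimmer probe sets lower than in MII by limma (-0.68 and -0.59). The median signal of all probe sets was lower on the MIV arrays (64.7 to 65.2) than in MIII (72.1 to 74.9) or MII (69 to 71.7). The part of this difference in the calls of dim probe sets was not tested. Whether the dim probe sets measure the same transcripts was not tested either.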

How the data were processed

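The members and lists were chosen with earlier results of these data known. Total RNA of 3 lines was measured on 9 arrays. The deposited values are intensity values, which the submitters' processing notes name as MAS5 signals and which the values show to be linear. For MAS5, neither version nor detection calls are given in the sources used here. On every array the middle 96% of values averaged 500.07, and no further scaling was applied. The median of all values was not level between the lines, at 64.7 to 65.2 in MIV, 72.1 to 74.9 in MIII and 69 to 71.7 in MII. The array annotation lists 1 gene for 41091 of 54675 probe sets, and only these were named.

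Signals were analysed as log2(signal + 18.3), the offset being the pooled 25th percentile. Genes were kept when at least 3 arrays exceeded the pooled median of 69.3, and represented by the probe set with the highest mean. In limma 3.58.1 under R 4.3.3, 1 model with a mean per line and a variance trend by intensity took all 9 arrays (6 residual degrees of freedom). Benjamini-Hochberg adjustment ran over 12594 genes. The number of arrays limits the precision: log2 changes had a median standard error of 0.05 for the members and 0.11 for all genes. Arrays of a line correlated at 0.974 or more, and none were identical. Errors are SDs of 3 arrays for signals and standard errors from limma for changes. The fit was tested on simulated data.

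Members named in full were, per complex and comparison, up to 3 rises and 3 falls with an adjusted p under 0.05 and no overlap of arrays, any member past 2-fold, all of complex II, the brightest and dimmest per complex, and those with probe sets called in opposite directions. From the other lists, up to 3 genes past 2-fold, or the gene with the smallest p, were named. NDUFA9, NDUFA11, NDUFA13, NDUFAB1, NDUFB11, COX7A2L, CS, NRF1, GABPA, YY1, TFB1M, PPRC1, ESRRA, MYC, GABPB1, TFAM and the members with smaller calls were named after their values were seen. Gene order and promoters come from RefSeq tables of GRCh38.p14, and no gene coordinates were taken from the array files. Alternatives covered the offset, normalization, filter, variance model, array weights, probe set, replicate block, arrays in the fit, thresholds and leaving out each array. The counts for complex IV and the windows of neighbouring genes were added after seeing the data. Same-numbered replicates deviated from their line means with correlations between -0.04 and 0.04, so the numbers do not pair the arrays.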

Additional observations from a re-analysis of the deposited data

How the results depend on the processing

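With 1 value per gene, 0 members reached 2-fold under every alternative run, by limma. With an offset of 1 or at the pooled median, quantile normalization, no filter, the stricter filter or array weights, the counts and medians of the members stayed within 1.5 times or the spread between arrays. In MIV over MIII, the median change of the members was -0.12 with cyclic loess normalization, -0.15 with the mean of all probe sets and -0.12 with suffix-free probe sets, which cover 36 members. The 6 members higher became 3 with the mean of all probe sets. In MIV over MII, 19 were lower with cyclic loess and 3 higher with suffix-free probe sets. In MIII over MII, 5 were lower when the medians of the tested genes were set equal, 5 were higher and 4 lower without the variance trend and at an adjusted p under 0.01, 5 were lower with the mean of all probe sets and 5 higher with suffix-free ones. At an adjusted p under 0.05 with at least 1.5-fold, 0 members were higher and 1 lower in MIV over MIII, 0 higher and 2 lower in MIV over MII, and 0 higher and 0 lower in MIII over MII. For complex IV, the 8 members lower in MIV than in MIII became 0 at 1.5-fold, and the 6 higher in MIII than in MII became 3 without the variance trend, 3 at an adjusted p under 0.01 and 0 at 1.5-fold. The higher thresholds remove calls by construction, and the other causes were not tested.

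Leaving out 1 array at a time gave 5 to 7 members higher and 11 to 17 lower in MIV over MIII, 5 to 7 and 10 to 12 in MIV over MII, and 6 to 10 and 6 to 8 in MIII over MII. Medians ran from -0.10 to -0.06, from -0.06 to -0.04 and from -0.03 to 0.02. Complex IV then held 6 to 8 lower in MIV over MIII and 3 to 7 higher in MIII over MII, with 3 without MIII replicate 2. With the replicate block, 7 members were higher and 14 lower in MIV over MIII, 6 and 11 in MIV over MII, and 9 and 8 in MIII over MII.

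Reversals came with the choice of probe set. With the mean of all probe sets, MIV over MIII gave -0.24 for NDUFS1, -0.16 for NDUFS4 and 0.074 for SDHD, and MIII over MII gave -0.12 for NDUFB1 and 0.027 for NDUFA10. With suffix-free probe sets, MIII over MII gave -0.37 for NDUFB1, 0.094 for NDUFS1 and -0.12 for COX5B. The cause was not tested. Of 38 calls named by rule, 18 were lost in at least 1 alternative other than a higher threshold, among them COX6A1 with the mean of all probe sets (adjusted p = 0.0645 in MIV over MIII and 0.229 in MIII over MII) and NDUFB4 with its dim suffix-free probe set (0.202 in MIV over MII).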
